A study of Homo sapiens with 16 samples.

Results

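The inhibitor of apoptosis (IAP) family was followed at the mRNA level in LP-1, a human multiple myeloma cell line. Its members were BIRC2, BIRC3, XIAP, BIRC5, BIRC6, BIRC7 and NAIP, together with DIABLO and HTRA2, the mitochondrial antagonists of the family. They were chosen by name, and each was read through the array probes whose RefSeq accession maps to its symbol. All 9 genes had a probe, 12 probes in all, out of 20503 genes with a matched probe. No probe matched BIRC8.

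LP-1 cells had been transduced with a lentivirus carrying cIAP2 (the product of BIRC3) and eGFP (LP-1-cIAP2-eGFP, called cIAP2 cells here) or eGFP alone (LP-1-eGFP, called control cells), and transduced cells were sorted by fluorescence. Cells of each line were left untreated or given 10 nM bortezomib, a proteasome inhibitor, and were collected at 6 h or 24 h. These 8 conditions had 2 biological replicates apiece, and every one of the 16 samples had its own one-colour array. Every group shares the TRAF3 lesion of LP-1, which according to the study removes the MATH domain of this adaptor. The study compared the lines to learn what an excess of cIAP2 changes in myeloma cells that meet a proteasome inhibitor. Each line is a single transduced population, so the transgene cannot be told apart from other differences between the populations.

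Of 8 plasma cell and myeloma markers, 6 were well above background on all 16 arrays (SDC1, IRF4, XBP1, TNFRSF17, CD38 and MZB1), PRDM1 on 15 and SLAMF7 on 13. The B cell markers MS4A1 and PAX5 were not well above background on any array, and the epithelial marker EPCAM was so on 2. KRT18 was well above background on 16 arrays, CD14 on 13, CD3D on 12, and CD3E and COL1A1 on 10. LYZ had no matched probe. 1 array was dim, that of replicate 1 of cIAP2 cells treated for 24 h. Its median log2 signal before normalization was 3.18, against 5.73 to 6.64 on the other arrays, and 35.5% of its spots were well above background, against 49.0% to 71.1%. The 2 arrays of that condition differed with an SD of 1.48 (log2) across probes, against 0.495 to 0.773 in the other conditions. Slide 1 held 6 arrays of cIAP2 cells and 2 of control cells, and slide 2 held 2 and 6, so line and slide overlap in part.

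IAP proteins carry baculoviral IAP repeats, short zinc-binding folds. XIAP uses them to bind and block caspases directly. The cellular IAPs, cIAP1 (BIRC2) and cIAP2 (BIRC3), are mainly ubiquitin ligases that act with TRAF2 and TRAF3 on RIPK1 and on the NF-κB-inducing kinase, and BIRC3 is itself a known NF-κB target gene. Survivin (BIRC5) belongs to the chromosomal passenger complex and is made in dividing cells, BIRC6 is a giant ubiquitin-conjugating enzyme, livin (BIRC7) is known from melanoma, and NAIP is the bacterial sensor of an inflammasome. Smac (DIABLO) and Omi (HTRA2) leave the mitochondria in apoptosis and displace caspases from IAPs. In myeloma, losses of TRAF3 or of the cellular IAPs are known to activate NF-κB.

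BIRC3 and BIRC2 are adjacent on chromosome 11, with 0 annotated genes between them, and their promoters are shown because the data separated these neighbours. The sequences are the 250 bases before the most upstream RefSeq start of each gene (assembly GRCh38.p14, plus strand, chr11:102317234-102317483 for BIRC3 and chr11:102346964-102347213 for BIRC2), with matches to the NF-κB consensus in capitals.
BIRC3: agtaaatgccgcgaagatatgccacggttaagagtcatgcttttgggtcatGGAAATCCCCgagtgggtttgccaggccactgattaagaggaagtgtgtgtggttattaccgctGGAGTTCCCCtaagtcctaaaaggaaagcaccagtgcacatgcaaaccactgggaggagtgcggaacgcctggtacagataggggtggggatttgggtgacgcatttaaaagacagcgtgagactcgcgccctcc
BIRC2: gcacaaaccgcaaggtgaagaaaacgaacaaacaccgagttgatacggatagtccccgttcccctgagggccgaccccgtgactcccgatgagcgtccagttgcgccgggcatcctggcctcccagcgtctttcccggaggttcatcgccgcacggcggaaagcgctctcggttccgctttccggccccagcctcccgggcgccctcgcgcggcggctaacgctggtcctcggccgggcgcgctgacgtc
The BIRC3 window held 2 matches, GGAAATCCCC at bases 199 to 190 and GGAGTTCCCC at bases 135 to 126 before the start, each a match on the minus strand. A match was found on either strand in 9.58% of 27305 promoters of this length, and 2 or more matches in 1.62%. The BIRC2 window held none. RefSeq entries were at hand for 7 of the 9 members, BIRC5 and NAIP being without an entry here. Beside BIRC3, BIRC6 had 1 match, at bases 215 to 206, which reads as a match on both strands. Of 3 other motifs searched on both strands, TGACGTCA, GAANNTTC and TGACNNNGC, none was in the window of any of these members, whereas 1.75%, 5.85% and 11.1% of all promoters held them. The first and the last of these share their opening letters. These matches describe letters in the sequence, and factor binding was not measured.

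Signals are given as log2 of the quantile-normalized, background-subtracted intensity of the brightest probe of each gene. They compare a gene between samples and not 1 gene with another, since probes differ in brightness. A probe was called where limma's Benjamini-Hochberg adjusted p over all 33731 tested probes was under 0.05, and ± gives the SD over 2 arrays or, beside a difference, the standard error (SE). Of the 9 members, 8 were well above background on all 16 arrays, and BIRC7 was so on 7.

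**Figure D1:**
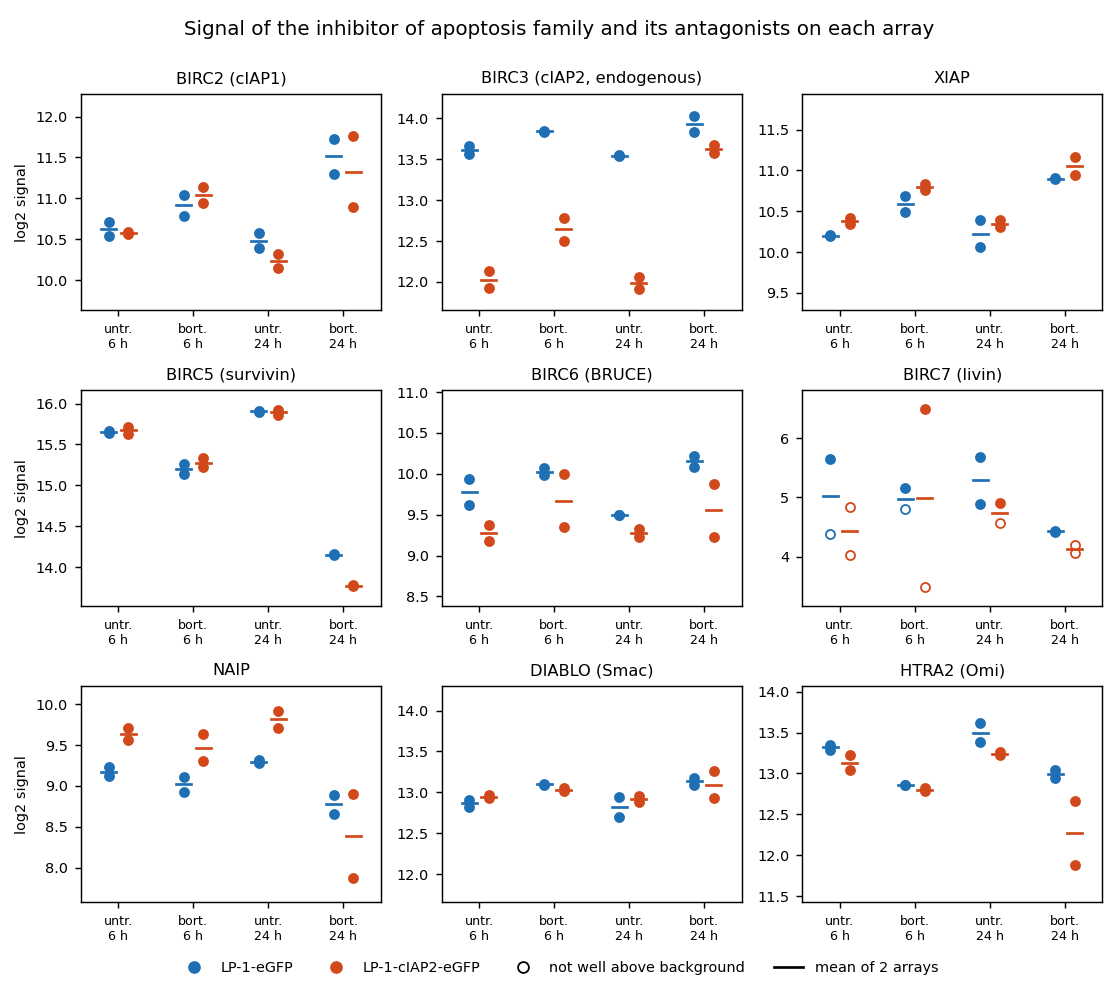
Log2 signal of the brightest probe of each member on each of the 16 arrays (y axis, its own range in each panel) by treatment and time (x axis). Points are arrays, short lines are means of 2 arrays, and open points were not well above background. BIRC3 of cIAP2 cells sits between 11.92 and 12.13 without the drug and at 13.58 and 13.67 with it at 24 h, and BIRC5 of both lines is lowest at 24 h with the drug.

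Bortezomib changed members of the family at 24 h, and at 6 h no change was called. In control cells at 24 h, 2 of the 9 members rose (BIRC2, XIAP) and 1 fell (BIRC5), where 21.0% of all probes were called. In cIAP2 cells 3 rose (BIRC2, BIRC3, XIAP) and 3 fell (BIRC5, NAIP, HTRA2), where 28.6% of all probes were called. The count in cIAP2 cells was 2 with array weights (BIRC3, BIRC5), and it ran from 4 to 6 with each array left out. The count in control cells rose to 6 without the dim array (BIRC6, NAIP and HTRA2 added) and fell to 1 without replicate 1 of treated or replicate 2 of untreated control cells. The median log2 fold change of the 9 members was 0.31 in control cells, against -0.03 over all probes, and 0.18 in cIAP2 cells, against -0.16. In cIAP2 cells the median of the members was 0.016 without the dim array. With 75th percentile scaling the members' median was 0.10 in control cells, against -0.01 over all probes. In cIAP2 cells it was then 0.25, against 0.21. BIRC7, near background, counts in these medians. Without it the medians in control and cIAP2 cells were 0.35 and 0.23, the latter being 0.31 without the dim array. With 75th percentile scaling they were 0.14 and 0.093. The comparisons between the lines draw on the same arrays as these responses, and in such bulk samples fewer cells of a kind and less RNA per cell cannot be told apart. Within 1 slide, where each 24 h comparison had a single array on one side (treated in control cells, untreated in cIAP2 cells), the changes had the same sign, in control cells on slide 2 with 0.82 for BIRC2, 0.67 for XIAP and -1.76 for BIRC5, and in cIAP2 cells on slide 1 with 1.01, 0.66 and -2.15, and -1.32 for NAIP and -0.95 for HTRA2. With the slide as a block BIRC2 in control cells was no longer called (limma adjusted p = 0.0527). At 6 h limma called 0 of the 9 in control cells (1.95% of all probes called) and 0 in cIAP2 cells (1.09%). At an unadjusted p under 0.05 there were 2 members at 6 h in control cells (XIAP, BIRC5), beside 3968 of 33731 probes. In cIAP2 cells there were 3 (BIRC3, XIAP, BIRC5), beside 3589 of 33716 probes. With limma's array weights 3 and 2 members were called.

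Between the lines only BIRC3 was called among the members, as lower in cIAP2 cells. This was so in the average over treatment and time (16.1% of all probes called), in untreated cells (7.75%) and with bortezomib at 6 h (3.31%). With bortezomib at 24 h limma called 0 members (5.92% of all probes). An unadjusted p under 0.05 was found for 3 members (BIRC5, BIRC6, HTRA2) and for 8175 of 33731 probes. Without the brighter array of treated cIAP2 cells 5 members were called in this comparison. The lines' responses to bortezomib were also compared directly, as the difference between the 2 responses. Here limma called 0 members at 6 h, where 0.00297% of all probes were called, and 0 at 24 h, where 0.0712% were. An unadjusted p under 0.05 was found for 691 of 33716 probes at 6 h and for 2731 of 33730 at 24 h. At an unadjusted p under 0.05 there were 0 members at 6 h and 2 at 24 h (BIRC3, NAIP), and without the brighter array of treated cIAP2 cells 3 were called at 24 h (BIRC3, NAIP, HTRA2). Time in untreated cells gave 0 called members, with 0.00890% of all probes. At an unadjusted p under 0.05 it gave 1 member (BIRC5), beside 1631 of 33716 probes. By limma's F test over the 8 conditions, 6 members differed (BIRC2, BIRC3, XIAP, BIRC5, NAIP, HTRA2), as did 31.4% of all probes.

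**Figure D2:**
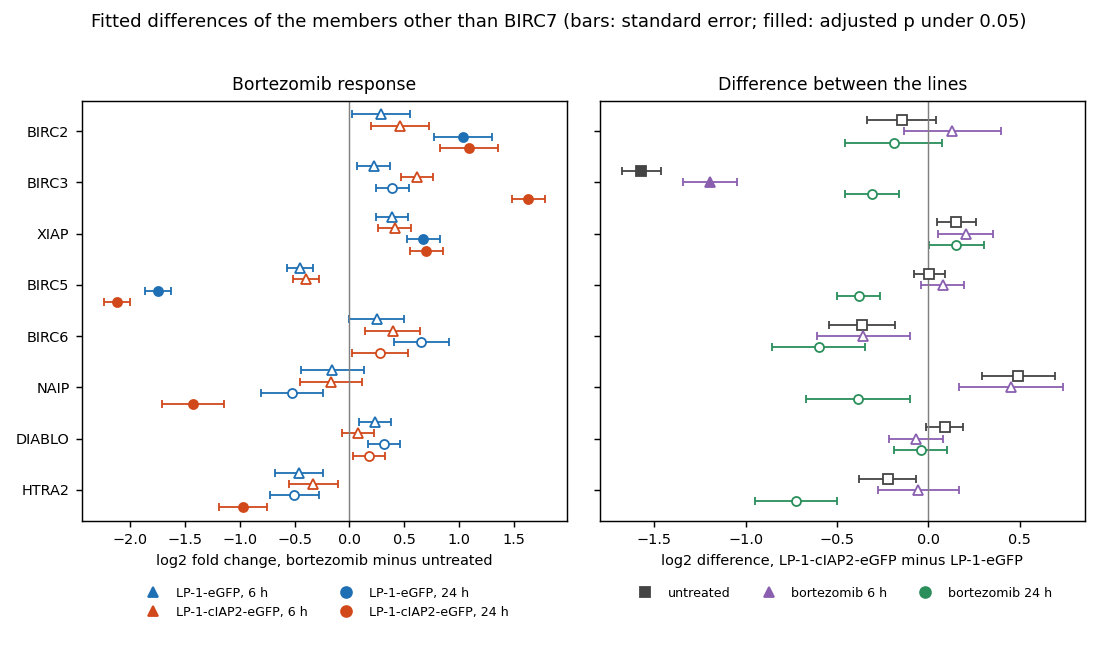
Fitted log2 differences (x axis) of the members other than BIRC7 (y axis), for bortezomib against untreated cells of the same line and time (left) and for cIAP2 cells against control cells (right). Bars are SE, and filled points had an adjusted p under 0.05. BIRC3 at -1.57 in untreated cells is the farthest from 0 between the lines, and BIRC5 at -2.12 is the farthest under bortezomib.

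BIRC3, as above, was the only member called between the lines. According to the methods its probe lies in the 3′ untranslated region and reads the endogenous gene alone, so that the array cannot check the overexpression. The place of the probe was not checked here, and BIRC3 is called endogenous on that basis. In control cells without drug the 4 arrays gave 13.57 and 13.67 at 6 h and 13.54 and 13.55 at 24 h. In cIAP2 cells they gave 11.92 and 12.13 at 6 h and 11.92 and 12.06 at 24 h. The lines did not overlap, and endogenous BIRC3 was 2.97-fold lower in cIAP2 cells (log2 difference -1.57 ± 0.106, limma adjusted p = 2.24e-05). It was also below the control on each slide taken alone, with log2 differences of -1.74 on slide 1 and -1.45 on slide 2. Control cells had a single untreated array on slide 1. Averaged over treatment and time the difference was -1.16 ± 0.0748 (limma adjusted p = 7.42e-06). That p lay below the threshold of 0.001 and the untreated lines differed by over 2-fold, so BIRC3 met limma's stand-in for the study's 3-way criterion, as 2.37% of all probes did.

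The gap was smaller with bortezomib at 24 h, by when BIRC3 had risen in cIAP2 cells. At 6 h the arrays of cIAP2 cells gave 12.51 and 12.79, against 13.85 and 13.83 in control cells, a difference of -1.19 ± 0.150 (limma adjusted p = 0.00236). At 24 h they gave 13.58 and 13.67, against 14.04 and 13.83. This remaining difference of -0.31 was not called (limma adjusted p = 0.234), with a 95% interval from -0.64 to 0.03, and it was 0.10 with normexp background correction. Against untreated cells of the same time, BIRC3 rose 3.11-fold in cIAP2 cells at 24 h (1.64 ± 0.150, limma adjusted p = 6.01e-05), and by 1.71 on slide 1 alone. In control cells the change was 0.39 ± 0.150, with a limma adjusted p of 0.0996. The 6 h changes were 0.62 in cIAP2 cells (limma adjusted p = 0.104) and 0.22 in control cells (limma adjusted p = 0.730).

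The difference between these 2 responses at 24 h was 1.24 ± 0.212, with a 95% interval from 0.77 to 1.72. Its unadjusted p was 1.83e-04 in limma, and its adjusted p over all probes was 0.109, so it was not called. The estimate lay between 1.14 and 1.34 with any single array left out. It was called without the other, brighter array of cIAP2 cells with bortezomib at 24 h (limma adjusted p = 0.00414), and not without the dim array (limma adjusted p = 0.0680). In order of their means, control cells held 4 of the 5 highest conditions of BIRC3, and the untreated conditions of cIAP2 cells were the lowest. The latter overlapped with each other, at 12.03 ± 0.148 and 11.99 ± 0.105.

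Markers also differed between the lines. SLAMF7, a surface antigen of myeloma cells, had a mean log2 signal of 10.81 in cIAP2 cells and 5.02 in control cells (limma adjusted p = 2.35e-08 for the average over conditions). SDC1, which encodes CD138, had 11.98 and 10.57 (limma adjusted p = 5.10e-06). MZB1 was higher in cIAP2 cells (log2 difference 0.50) and CD38 lower (-0.55). Thus 3 of the 8 plasma cell markers were higher and 1 was lower, where 16.1% of all probes were called. CD3D, at 4.91 and 6.05, and KRT18, at 9.35 and 9.75, were lower in cIAP2 cells. Since SLAMF7 was well above background on 13 of the 16 arrays and CD3D on 12, the sizes given for these 2 genes are uncertain. The part of the marker differences in the BIRC3 result was not tested.

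BIRC2, which encodes cIAP1, rose in both lines at 24 h. In control cells at 24 h it was at 10.57 and 10.39 without drug and at 11.73 and 11.30 with it. This was a rise of 2.05-fold (1.04 ± 0.265, limma adjusted p = 0.0199). In cIAP2 cells it went from 10.32 and 10.15 to 10.89, on the dim array, and 11.76, a rise of 2.13-fold (1.09 ± 0.265, limma adjusted p = 0.0126). In each line the treated arrays lay above the untreated ones. Without the dim array the rise in cIAP2 cells was 1.52, and without the brighter array it was 0.66 (limma adjusted p = 0.0263). The BIRC2 calls were lost in both lines with normexp background correction, at a rise of 1.04 in control cells (limma adjusted p = 0.264) and of 0.23 in cIAP2 cells (limma adjusted p = 0.790).

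The difference between the lines in the BIRC2 response at 24 h was 0.06, with a 95% interval from -0.78 to 0.90, so these arrays did not resolve whether the responses were alike. Untreated cells of the lines differed by -0.15 (95% interval from -0.57 to 0.27, limma adjusted p = 0.805). Neither 6 h change was called, at 0.29 for control cells and 0.46 for cIAP2 cells.

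XIAP, the direct caspase inhibitor, also rose in both lines at 24 h. In control cells at 24 h its arrays gave 10.39 and 10.06 without drug and 10.91 and 10.89 with it, a rise of 1.60-fold (0.67 ± 0.150, limma adjusted p = 0.0101). In cIAP2 cells they gave 10.39 and 10.31 without drug and 10.95 and 11.16 with it, a rise of 1.63-fold (0.70 ± 0.150, limma adjusted p = 0.00657). The treated arrays lay above all untreated arrays of their line. The 6 h changes were 0.39 and 0.41 (limma adjusted p = 0.313 and 0.312), and the lines differed in their 24 h response by 0.03 (95% interval from -0.45 to 0.50). A second, dimmer XIAP probe was not called in either line at 24 h, and it changed by 0.58 in control cells. In cIAP2 cells it gave 6.69 and 6.59 without drug and 7.64 on the brighter treated array. On the dim array it was not well above background, so its change there has no measured size. With the mean of both probes XIAP was not called in either line (limma adjusted p = 0.118 and 0.254).

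BIRC5 fell in both lines at 24 h. Survivin mRNA stood at 15.91 and 15.90 in untreated control cells at 24 h and at 14.16 and 14.14 with bortezomib. It had fallen 3.37-fold (-1.75 ± 0.118, limma adjusted p = 2.15e-05). In cIAP2 cells the arrays gave 15.92 and 15.86 without drug and 13.76 and 13.78 with it, a fall of 4.35-fold (-2.12 ± 0.118, limma adjusted p = 5.58e-06). These 2 calls held under every alternative run and with each array left out. At 6 h the treated arrays, 15.26 and 15.13 in control cells and 15.22 and 15.33 in cIAP2 cells, already lay below the untreated ones, at 15.62 to 15.72. Those changes of -0.45 and -0.40 were not called (limma adjusted p = 0.103 and 0.196).

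No difference between the lines was detected in BIRC5 without drug (0.01, 95% interval from -0.18 to 0.19). With bortezomib at 24 h cIAP2 cells were lower, at a difference of -0.38 ± 0.118, and their arrays did not overlap with those of control cells, but the limma adjusted p of 0.0938 missed the threshold. The difference was -0.39 on slide 1 alone, where control cells had a single treated array. The response differed between the lines by -0.37 (95% interval from -0.74 to 0.01).

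Partners of survivin and other mitotic genes fell with it. Of 10 listed genes 9 fell and 0 rose at 24 h in control cells, with a median of -1.13 against -0.03 over all probes, of which 21.0% were called. In cIAP2 cells 9 fell and 0 rose, with a median of -1.61 against -0.16 over all probes and 28.6% of them called. The list was chosen with earlier results known. PLK1, a kinase of mitotic entry, changed by -2.41 in control cells and -3.44 in cIAP2 cells on the log2 scale. Its arrays went from 12.52 and 12.68 to 10.10 and 10.29 in control cells, and from 12.78 and 12.64 to 8.88 (dim array) and 9.67 in cIAP2 cells. TOP2A, the topoisomerase of dividing cells, changed by -1.94 and -3.19. BUB1, a spindle checkpoint kinase, changed by -1.36 and -1.65. CDK1 changed by -1.19 in control cells, and AURKB, the kinase of the passenger complex, by -1.98 in cIAP2 cells. INCENP, the passenger complex scaffold, was the only listed gene not called, and is named here after its values were seen. Without the dim array the count in cIAP2 cells was again 9, at a median of -1.50. At 6 h 0 of the 10 were called in either line.

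**Figure D3:**
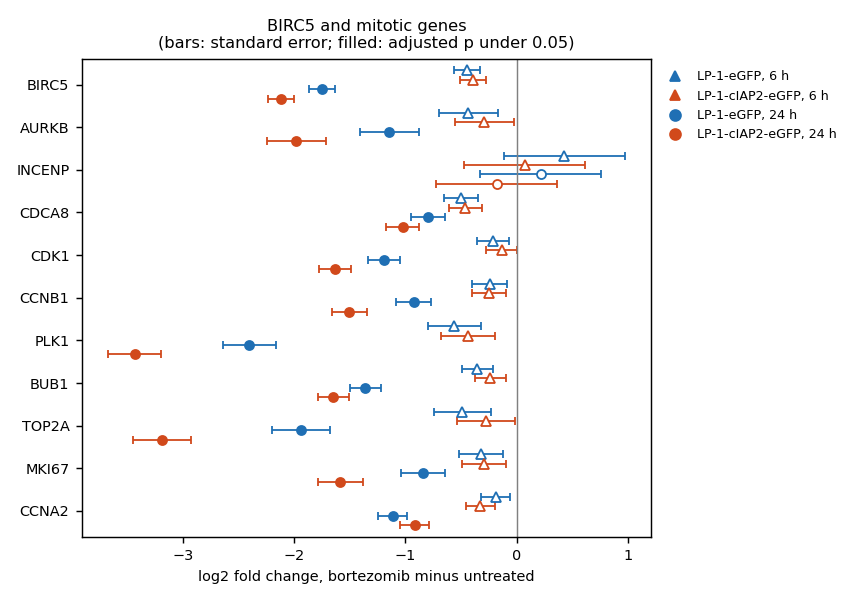
Log2 fold change with bortezomib (x axis) of BIRC5 and of 10 listed mitotic genes (y axis), at 6 h (triangles) and 24 h (circles) in each line. Bars are SE, and filled points had an adjusted p under 0.05. At 24 h every listed gene but INCENP is filled on the left of 0 in both lines, with PLK1 at -2.41 and -3.44.

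BIRC6 gave lower values in cIAP2 cells, but no comparison of it was called. In untreated cells it gave 9.62 and 9.94 at 6 h and 9.50 and 9.49 at 24 h in control cells, against 9.18 and 9.37 and then 9.23 and 9.32 in cIAP2 cells. The arrays of the lines did not overlap, at a difference of -0.36 ± 0.180 (limma adjusted p = 0.330). Averaged over treatment and time the difference was -0.42 ± 0.127, with a limma adjusted p of 0.0511. It was called with normexp background correction (limma adjusted p = 0.0414) and with probes bright on every array (0.0193). Between untreated cells on the same slide the lines differed by -0.76 on slide 1, where control cells had a single array, and by -0.21 on slide 2. With bortezomib at 24 h the arrays gave 10.08 and 10.22 in control cells and 9.23 (dim array) and 9.88 in cIAP2 cells. It changed by 0.66 ± 0.254 in control cells and by 0.28 ± 0.254 in cIAP2 cells, and neither was called. The change in control cells was called with the replicate block (limma adjusted p = 0.0376). With each array left out, the change in cIAP2 cells ran from -0.043 to 0.60, the latter without the dim array.

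BIRC7 was close to background in LP-1. Its signals ran from 3.48 to 6.49 over the 16 arrays, and in cIAP2 cells untreated at 6 h and with bortezomib at 24 h no array was well above background. No comparison of BIRC7 was called, and its differences are not listed, since groups not well above background have only a bound.

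NAIP fell in cIAP2 cells. At 24 h it went from 9.71 and 9.92 without drug to 7.88, on the dim array, and 8.90, a fall of 2.69-fold (-1.43 ± 0.284, limma adjusted p = 0.00455). The change was -0.91 without the dim array (limma adjusted p = 0.00662) and -1.94 without the brighter array, and it was not called with array weights (0.0501). In control cells it went from 9.32 and 9.28 to 8.66 and 8.89, so the treated arrays lay below the untreated ones there too. This change of -0.52 was not called (limma adjusted p = 0.259). At 6 h treated arrays gave 8.93 and 9.11 in control cells and 9.30 and 9.64 in cIAP2 cells, and no 6 h change was called. In untreated cells every NAIP array of cIAP2 cells, at 9.57 to 9.92, lay above every array of control cells, at 9.12 to 9.32, but the difference of 0.49 ± 0.201 was not called (limma adjusted p = 0.213). The difference between the 24 h responses was -0.90 ± 0.402 (limma adjusted p = 0.617) and was -0.39 without the dim array and -1.42 without the brighter array (limma adjusted p = 0.00325). Of 2 further NAIP probes, the brighter gave 8.56 and 7.76 in untreated cIAP2 cells at 24 h and 7.02 on the brighter treated array, and on the dim array it was not well above background, so its fall there has no measured size. The dimmest probe was not called. NAIP has near-identical partial copies in the genome, so which copies its probes read is uncertain.

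Of 5 genes of the NAIP inflammasome 3 were bright enough to test, NLRC4 being well above background on 1 array and IL18 on 0. PYCARD, the adaptor that recruits caspase-1, fell in both lines at 24 h, with changes of -1.23 in control cells and -1.43 in cIAP2 cells. CASP1 fell by 0.73 in control cells, so that 2 of 3 fell there and 1 of 3 in cIAP2 cells, where 21.0% and 28.6% of all probes were called. The medians of these 3 genes were -0.73 and -0.26, against -0.03 and -0.16 over all probes.

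Of the antagonists, HTRA2 was called at 24 h in cIAP2 cells and DIABLO was not, and no test compared them. DIABLO stayed between 12.70 and 13.26 over the 16 arrays and was not called in any comparison. Its 24 h changes were 0.31 in control cells (95% interval from -0.01 to 0.64) and 0.18 in cIAP2 cells (95% interval from -0.15 to 0.51), the latter being 0.016 without the dim array, and untreated lines differed by 0.09 (95% interval from -0.14 to 0.32). HTRA2 fell 1.96-fold at 24 h in cIAP2 cells, from 13.22 and 13.27 to 11.88, on the dim array, and 12.66 (-0.97 ± 0.222, limma adjusted p = 0.00925). Without the dim array the change was -0.58 (limma adjusted p = 0.0143), and without the brighter array it was -1.36. It was not called with array weights (limma adjusted p = 0.0607). In control cells it went from 13.38 and 13.61 to 12.95 and 13.04, and this change of -0.50 was not called (limma adjusted p = 0.156), though it was without the dim array (0.00901). The treated arrays of both lines lay below the untreated ones, also at 6 h, where they gave 12.86 and 12.86 in control cells and 12.82 and 12.78 in cIAP2 cells.

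The lines differed in HTRA2 by -0.22 without drug (limma adjusted p = 0.549) and by -0.72 with bortezomib at 24 h (limma adjusted p = 0.0908), the latter being -0.33 without the dim array and -1.12 without the brighter array (limma adjusted p = 0.000329). The 24 h responses differed by -0.47 (95% interval from -1.17 to 0.23), and by -0.077 without the dim array.

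Among 6 other genes whose products bind IAPs, 1 fell and 0 rose in each line at 24 h, no more than the share of all probes called (21.0% in control cells, 28.6% in cIAP2 cells). GSPT1, a translation termination factor whose processed form binds IAPs, fell by 0.73 in control cells, and in cIAP2 cells it changed by -0.55, which was called without the dim array (-0.78, limma adjusted p = 0.0232). TAB1, which joins XIAP to TAK1 signalling, fell by 1.12 in cIAP2 cells. Without the dim array its change was -0.68 and was not called. The medians were -0.20 in control cells and -0.17 in cIAP2 cells, against -0.03 and -0.16 over all probes. The median of cIAP2 cells was 0.20 without the dim array. SEPTIN4 and UBA6, which count in these medians, gave 5.68 and 4.06 on the dim array. Both lay below 6.89, the lowest signal well above background there. On the other treated array of cIAP2 cells SEPTIN4 gave 4.92, where that limit was 5.31. The medians of cIAP2 cells are therefore uncertain. Between the lines XAF1, the XIAP-associated factor, was lower in cIAP2 cells, at -1.57 on average (limma adjusted p = 0.00130). It stood at 8.47 and 8.43 in untreated control cells at 6 h and at 6.89 and 7.22 in cIAP2 cells, and no other gene of this list was called in that comparison.

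Of 7 caspase and apoptosome genes, 1 rose and 1 fell at 24 h in control cells, and 1 rose and 3 fell in cIAP2 cells. CYCS, the gene of cytochrome c, changed by -1.36 in control cells and -1.27 in cIAP2 cells on the log2 scale. CASP9, the initiator caspase of the apoptosome, rose by 1.05 and by 0.88. CASP2 fell by 1.15 and CASP6 by 0.60 in cIAP2 cells. Without the dim array 1 rose and 2 fell there, CASP6 being lost (limma adjusted p = 0.0722). The medians were -0.10 in control cells and -0.46 in cIAP2 cells, against -0.03 and -0.16 over all probes. The median of cIAP2 cells was -0.29 without the dim array. Both medians of cIAP2 cells are the values of APAF1. On each treated array of cIAP2 cells at 24 h, APAF1 lay below the lowest signal well above background. Its change there has no measured size, and these medians of cIAP2 cells are therefore uncertain. The counts of genes that rose or fell stand beside 21.0% and 28.6% of all probes called. Between the lines 2 of the 7 were higher and 0 lower in cIAP2 cells on average, where 16.1% of all probes were called. CASP10, an initiator of the death receptor pathway, was higher by 0.95 and CASP6 by 0.75.

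Of 9 partners of the cellular IAPs, 3 rose and 0 fell at 24 h in each line, where 21.0% of all probes were called in control cells and 28.6% in cIAP2 cells. The medians were 0.36 and 0.05, against -0.03 and -0.16 over all probes, and the median of cIAP2 cells was 0.18 without the dim array, with 2 genes called. OTUD7B and RIPK1 rose in both. OTUD7B, a deubiquitinase that acts on TRAF3, rose by 1.16 in control cells and by 1.56 in cIAP2 cells. RIPK1, a substrate of the cellular IAPs at the tumour necrosis factor receptor, rose by 0.72 and by 0.68. The receptor gene TNFRSF1A rose by 1.61 in control cells, and CYLD, a deubiquitinase that opposes NF-κB, rose by 0.75 in cIAP2 cells. Without the dim array the change of CYLD was 0.49 and was not called. Between the lines 3 of the 9 were higher and 2 lower in cIAP2 cells on average, where 16.1% of all probes were called. TNFRSF1A and TRAF2 (-0.67) were lower, while RIPK1 was higher by 0.44 and MAP3K14, the gene of the NF-κB-inducing kinase, by 0.33. TNFRSF1A was not well above background in untreated cIAP2 cells at 6 h in replicate 1 (4.79), nor on the dim array (6.55). Its difference between the lines is therefore given no size. The TRAF3 probe was well above background on 14 arrays and was not called in any comparison.

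NF-κB target genes other than BIRC3 did not all follow it. In untreated cells 2 of 8 were lower in cIAP2 cells and 1 was higher, with 7.75% of all probes called. The adhesion gene ICAM1 (-1.32) and RELB (-1.25), a subunit of the non-canonical pathway, were lower, and NFKB1, the gene of p105 and p50, was higher by 0.59. The median over the 8 was -0.18, against 0.00 over all probes. With bortezomib at 24 h 3 of 8 were lower, ICAM1 (-1.59), RELB (-0.78) and TNFAIP3 (-0.72), the gene of the feedback inhibitor A20, with 5.92% of all probes called. Under bortezomib RELB rose in both lines at 24 h, by 0.60 in control cells and by 1.07 in cIAP2 cells, while ICAM1 was not called in either line. ICAM1 stood at 12.07 to 12.61 over the arrays of control cells and at 10.89 to 11.12 over those of cIAP2 cells, so the lines did not overlap. NFKBIA, which encodes the inhibitor IκBα, rose by 1.27 and by 1.16, and CD40 by 1.27 and by 1.20. In control cells 3 of 8 rose and 0 fell, and in cIAP2 cells 3 rose and 2 fell, TNFAIP3 by 0.81 among them, where 21.0% and 28.6% of all probes were called. The medians were 0.01 and -0.18, against -0.03 and -0.16 over all probes. Without the dim array BCL2A1, the other gene that fell in cIAP2 cells, was not called (-0.36, limma adjusted p = 0.208), NFKB1 was called as lower with bortezomib (-0.52, limma adjusted p = 0.0440), and the median was 0.0045.

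**Figure D4:**
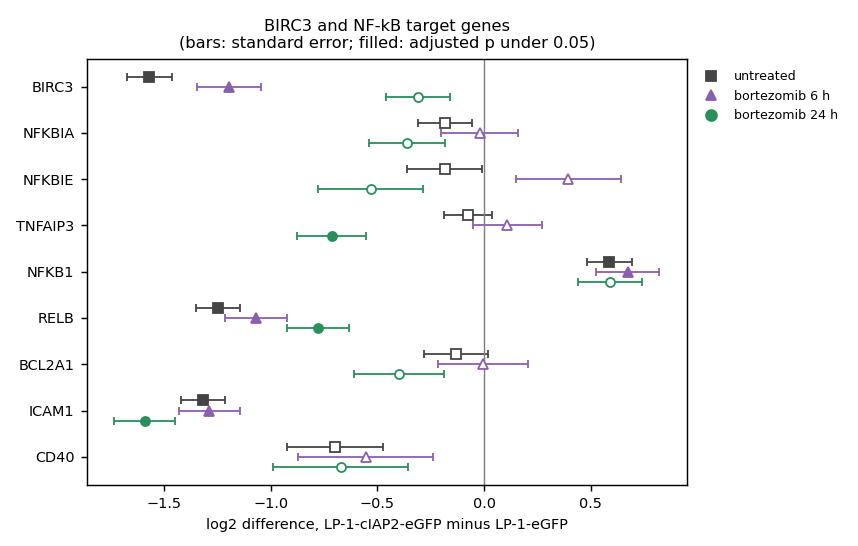
Log2 difference, cIAP2 cells minus control cells (x axis), of BIRC3 and 8 listed NF-κB target genes (y axis), untreated (squares, mean of both times), with bortezomib at 6 h (triangles) and at 24 h (circles). Bars are SE, and filled points had an adjusted p under 0.05. BIRC3 moves from -1.57 to -0.31, while ICAM1 is at -1.32 without drug and at -1.59 with it at 24 h.

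**Figure D5:**
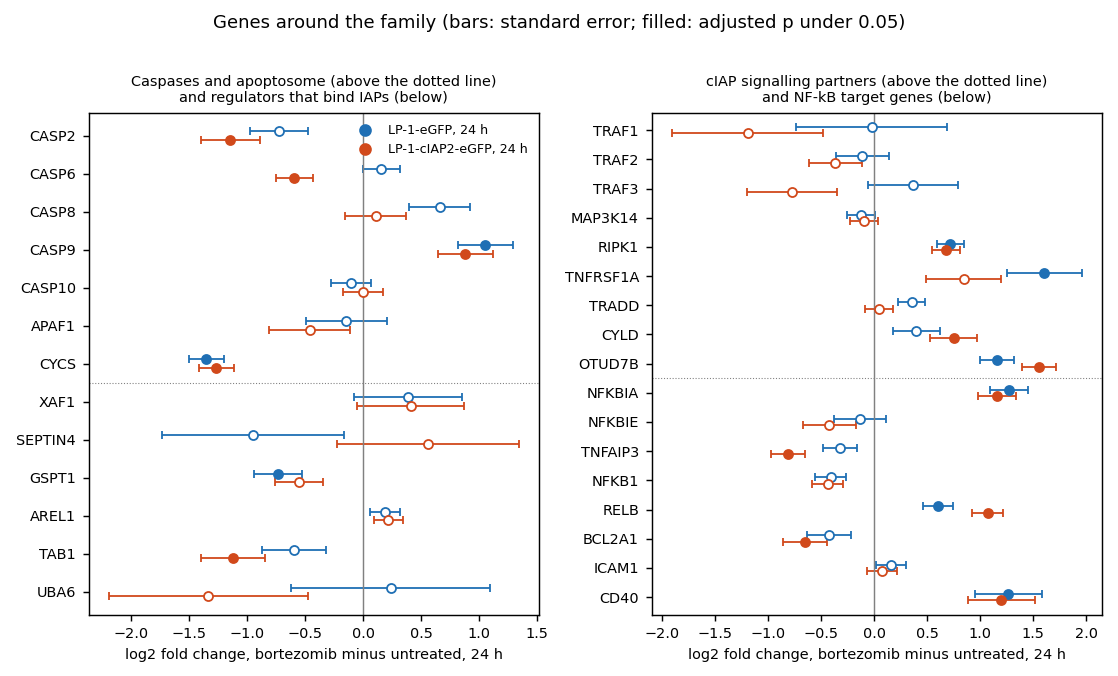
Log2 fold change with bortezomib at 24 h (x axis) of caspase, apoptosome and IAP-binding genes (left) and of partners of the cellular IAPs and NF-κB target genes (right), in each line. Bars are SE, and filled points had an adjusted p under 0.05. CYCS is filled at -1.36 and -1.27, and OTUD7B at 1.16 and 1.56.

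Within the family the condition means fell into opposed patterns. Over the 8 conditions, which share lines and slides, Pearson's r was 0.90 between BIRC2 and XIAP, -0.92 between BIRC5 and XIAP, -0.92 between BIRC2 and BIRC5, and 0.82 between BIRC5 and HTRA2. BIRC3 and XIAP had r of 0.30. The genes whose 8 condition means were most like those of BIRC5 were IMPA2, SLC37A4 and SNRPG (r of 0.996 each), and those most like BIRC3 were RIMS3 (0.984) and RNA18SN5 (0.975). For XIAP they were SEC31A (0.995), RAB6C (0.994) and PSMA1 (0.992), and for BIRC2 TXNL4B (0.989), NAP1L1 (0.987) and PRXL2C (0.986). NAIP was closest to VKORC1L1 (0.994), PIGK (0.992) and SNRPD2 (0.989), and HTRA2 to STX10 (0.998), CHTF8 (0.978) and RPP25L (0.977). With 8 points, picked from all tested genes, these values are given as a description.

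Plasma cell markers moved with bortezomib as well. At 24 h 6 of 8 fell and 1 rose in control cells, and 7 of 8 fell in cIAP2 cells, beside 21.0% and 28.6% of all probes called. The summed linear signal of the 8 markers, of which XBP1 gave the most, lay between 291571 and 370267 on the untreated arrays, between 240552 and 270769 with bortezomib at 6 h and between 114721 and 125862 at 24 h, without 1 array of treated control cells on which a marker spot had been left out. XBP1 changed by -1.72 in control cells and -1.20 in cIAP2 cells, and SDC1 by -1.80 and -3.11 on the log2 scale. Of the markers of other cell types, KRT18, an epithelial keratin, rose by 0.73 at 24 h in cIAP2 cells (limma adjusted p = 0.0373) and changed by 0.50 in control cells (limma adjusted p = 0.168). CD14, the only listed myeloid marker with a matched probe, was not called. Its linear signal was 414 on the dim array and between 27.3 and 105 on the others. The part of these markers in the changes of the family was not tested.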

How the data were processed

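Total RNA of 16 samples was hybridised to one-colour Agilent SurePrint G3 Human 8×60K v2 arrays, 8 on each of 2 slides. Per the file headers, the deposited intensity values had been background-subtracted and detrended by Agilent Feature Extraction (10.7.3.1) and were not normalized between arrays. A further deposited table holds log2 values that the authors had quantile normalized in GeneSpring and centred probe by probe on the median, and served as an alternative. Groups and replicates came from the labels, and 0 columns were left unmapped.

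After removal of spots marked non-uniform or outlying, log2 signals were averaged for each of 50599 gene probes and quantile normalized across arrays in R (4.3.3) with limma (3.58.1). The test took in 33731 probes, those that in some condition had both replicates well above background. Through RefSeq accessions, 28174 probes were matched to gene symbols (table of assembly GRCh38.p14, used for names and promoter sequences). limma's lmFit, contrasts.fit and eBayes fitted 8 condition means over all 16 arrays (1.61 prior degrees of freedom), with Benjamini-Hochberg adjustment over all probes and a threshold of 0.05. The fit was tested on simulated data.

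Each gene was read by its brightest probe. All members are named, from each list up to 4 called genes with the largest change, and up to 3 genes of like pattern for each member that passed the F test. Some genes of the lists and of these patterns are not reported here, and counts and medians leave them out. The members, lists and tests were chosen with earlier results of these data known. Replicates are biological per the methods, and with 2 arrays for each condition the number of arrays limits the precision. Alternatives were 75th percentile scaling, normexp background correction (offset 50), the authors' table, no filter or a filter on all arrays, replicate and slide blocks, within-slide differences, array weights, the mean of all probes of a gene, and each array left out. Counts of list genes without the dim array were added after seeing the data.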

Additional observations from a re-analysis of the deposited data

How the results depend on the processing

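Over 12 called member values and 9 alternatives that kept all arrays, 96 of 108 values kept their call, 12 lost it and 0 turned direction. With each array left out, 185 of 192 kept it and 7 lost it. The calls of BIRC3 and BIRC5 were among those never lost. BIRC2 at 24 h in control cells was also lost with 75th percentile scaling (limma adjusted p = 0.0586), with the slide block (0.0527) and without control cells bortezomib 24 h replicate 1 (0.146), untreated 24 h replicate 1 (0.0527) or untreated 24 h replicate 2 (0.106), and in cIAP2 cells with array weights (0.146) and without its untreated 24 h replicate 2 (0.0772). XIAP was lost with 75th percentile scaling in control cells (0.0553) and cIAP2 cells (0.0589), with array weights in cIAP2 cells (0.169), and in control cells without its bortezomib 24 h replicate 1 (0.0557) or untreated 24 h replicate 2 (0.0740). In cIAP2 cells HTRA2 was lost with array weights (0.0607) and without untreated 24 h replicate 2 (0.0536), and NAIP with array weights (0.0501).

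Counts of called members moved as follows. Averaged over conditions, the line difference went from 1 to 3 with normexp background correction or when only probes bright on every array were tested (the all-array filter), and to 2 with array weights, the replicate block or the mean of all probes. In untreated cells it went from 1 to 2 with array weights. With bortezomib at 24 h it went from 0 to 2 with the all-array filter (BIRC5, HTRA2) and to 1 with the mean of all probes (BIRC5). The 6 h response went from 0 to 1 in control cells and 2 in cIAP2 cells under that filter, to 3 and 2 with array weights, and to 1 and 1 with the mean of all probes. The 24 h response in control cells went from 3 to 1 with 75th percentile scaling and to 5 under that filter, and in cIAP2 cells from 6 to 2 with array weights. Others were to 4 in control cells with the replicate block or array weights, to 2 there with the slide block or the mean of all probes, and to 5 in cIAP2 cells with 75th percentile scaling, normexp or the mean of all probes. The difference between the 24 h responses went from 0 to 1 (BIRC3) with either that filter or the mean of all probes. With each array left out, the counts ran from 1 to 3 for the average line difference, from 1 to 2 untreated, from 0 to 5 with bortezomib at 24 h, from 0 to 2 and from 0 to 1 for the 6 h response in control cells and cIAP2 cells, from 1 to 6 and from 4 to 6 for the 24 h response in control cells and cIAP2 cells, and from 0 to 3 for the difference between 24 h responses.

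Over all comparisons, 18 of 792 values of members other than BIRC7 turned direction under the alternatives that kept all arrays, none of them a called value. Of the values reported here, with 75th percentile scaling BIRC5 was -0.048 between untreated lines, DIABLO -0.068 for the 24 h response in cIAP2 cells, and XIAP -0.038 for the difference between 24 h responses. With normexp BIRC3 was 0.10 between the lines at 24 h with bortezomib and BIRC2 -0.81 for the difference between 24 h responses. With the mean of all probes XIAP was -0.21 for that difference. With each array left out, BIRC5 between untreated lines ran from -0.019 to 0.029, BIRC6 at 24 h in cIAP2 cells from -0.043 to 0.60, and the difference between 24 h responses from -0.38 to 0.49 for BIRC2 and from -0.13 to 0.19 for XIAP. The cause of these changes was not tested. The 75th percentile scaling moved the median of all probes from -0.16 to 0.21 for the 24 h response in cIAP2 cells, and from -0.11 to 0.11 between the lines at 24 h with bortezomib.

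With the replicate number as a block, 2 members (BIRC3, BIRC6) were called in the average line difference, and BIRC6 also at 24 h in control cells (0.66, limma adjusted p = 0.0376). The replicate numbers were not taken as pairs: over 28 pairs of conditions the deviations of the first replicates correlated between -0.11 and 0.24, above 0.1 in 7. Single genes shared a direction: of 53 listed genes, 6 (BCL2A1, CASP2, CD40, GSDMD, INCENP, TAB1) were higher in replicate 2 and 1 (NFKBIA) in replicate 1 in all 8 conditions. BIRC7 was near background, so its differences have no measured size.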
